A study of Mus musculus with 6 samples.

Results

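The 124 genes described here encode the machinery of second messenger signalling: kinases and phosphatases driven by calcium and cyclic nucleotides, adenylyl and guanylyl cyclases, phosphodiesterases, phospholipases C, G protein subunits, MAP kinases, PI3 kinases and the calcium binding proteins and pumps around them. They are all genes in the authors' deposited lists of down- and up-regulated genes whose symbol begins with a family stem such as Camk, Prkc, Prka, Prkg, Adcy, Gucy, Pde, Plc, Itpr, Dgk, Gna, Gnb, Gng, Ppp, Mapk, Map2k, Map3k, Inpp, Pik3, Atp2b, Calm, Pcp4, Calb, Pvalb, Ncald, Hpca or Vsnl. The lists hold 3878 genes, of which 3716 have a symbol, and the count table holds 41096. Of the members, 100 came from the down-regulated and 24 from the up-regulated list. The RefSeq annotation of GRCm38.p6 has 326 protein-coding genes with such symbols, so most of the families are only partly on the lists (3 of 4 Camk2 kinase genes, 6 of 10 Adcy, 8 of 23 Pde, 5 of 9 Prkc, 2 of 3 Itpr). A few members carry a family name without the enzyme activity, such as Pde4dip, Itpripl1 and Camkmt.

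The libraries were bulk RNA of the left cochlea from mice labelled as strain C56Bl/6 (C57BL/6 in the methods), 4 weeks old, all of which had been exposed to narrow band 16 kHz noise. The sound trauma group (specimens 6, 8 and 10, labelled Noise trauma) received no cells, and according to the methods an injection of artificial perilymph. The MSC treated group (specimens 13, 18 and 20, labelled Noise + cells) received 1 µl of human Wharton's jelly mesenchymal stromal cells through the posterior semicircular canal, so that human cells were placed in a mouse ear. RNA was taken 48 h after treatment by the labels and 72 h by the methods. There was no library without noise, so the comparison is of animals with and without cells after the same trauma. Each library is labelled as 1 specimen, and n was 3 in each group. The methods give more replicates per condition than these, so the authors' lists, which define the members, may rest on further animals that were not analysed here. Down- and up-regulated mean in what follows that the authors listed a gene so.

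As background, a cell surface receptor acts through a G protein on a cyclase or a phospholipase C, and the cAMP, cGMP, inositol trisphosphate (IP3), diacylglycerol and calcium that result are read by protein kinases A, G and C and by calmodulin. Phosphodiesterases, phosphatases, calcium buffers and calcium pumps end the signal. In the cochlea, calcium buffers and the plasma membrane calcium pump Atp2b2 handle the calcium that enters hair cells through transduction channels. Calb1, Itpr1, Itpka, Pcp4 and Ppp1r17 are also known as genes of the cerebellar Purkinje cell, which uses the IP3 pathway at its synapses, and Pvalb is the calcium buffer of fast skeletal muscle as well as of some neurons.

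Values are scaled counts, that is, reads per gene multiplied by 1 factor per library by the authors. Reads on genes ranged from 9170390 to 11030863 per library, and 1 read was worth 0.893 to 1.16 scaled counts. A fold change is MSC treated over sound trauma on the scale of log2(scaled count + 1), so a negative value means lower in MSC treated animals, and for low genes this scale understates the change. Scaled counts also depend on gene length, so levels are compared here between animals and not between genes. Values are given in the order specimens 6, 8 and 10 for sound trauma and 13, 18 and 20 for MSC treated animals. In bulk RNA, fewer cells of a type and less RNA per cell cannot be told apart.

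Of the 15970 genes with enough reads to be tested, 0 had an adjusted p under 0.05 in limma (0% in either direction), and at an unadjusted p under 0.05 there were 107 genes lower (0.67%) and 269 higher (1.68%). The counts at an adjusted p under 0.05 were also 0 in the edgeR quasi-likelihood test, in DESeq2 and in limma-voom, while the unadjusted counts were 266 lower (1.67%) and 259 higher (1.62%), 550 (3.44%) and 249 (1.56%), and 98 (0.614%) and 252 (1.58%). Of the members, 120 were tested, and Calm4, Gng13, Ppp1r17 and Ppp1r36 were too low for the test. An unadjusted p under 0.05 was found for 4 lower and 2 higher members in limma, and for 12 members in edgeR, 20 in DESeq2 and 7 in limma-voom. Without specimen 10 it was found in limma for 52 members, and over all genes for 7.03% lower and 8.56% higher. The authors chose the members by this contrast, so these counts and all fold changes below describe the genes and test nothing.

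Most of the down-regulated members were high in 1 or 2 of the 3 sound trauma animals. The highest of the 6 values was in specimen 8 for 78 of the 100 members and in specimen 6 for the other 22, and never in specimen 10 or an MSC treated animal. Among all genes tested, specimen 8 was highest for 28.2% and specimen 6 for 21.1%, and among the other 2641 genes of the down-regulated list for 68.6% and 29.5%. The median difference of the 100 members from the MSC treated mean was 0.45 in specimen 6, 1.19 in specimen 8 and -0.05 in specimen 10, on the log2 scale. Specimen 10 lay within the range of the 3 MSC treated animals for 63 of the 100 members, below it for 29 and above it for 8. It was the lowest of the sound trauma animals for 81. The median log2 fold change of these members was -0.46, with a range of -2.63 (Ppp1r17) to -0.10 (Gnas), and that of the other listed genes was -0.53.

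The 24 up-regulated members were low in specimens 6 and 8 more than high in the treated animals. The lowest of the 6 values was in specimen 6 for 13, in specimen 8 for 8, in specimen 10 for 2 and in specimen 18 for 1. Among the other 1113 genes of the up-regulated list, specimen 6 was lowest for 61.1% and specimen 8 for 32.8%. Among all genes tested these shares were 30.1% and 21.2%. Against the MSC treated mean, the median difference of the 24 members was -0.50, -0.35 and -0.06 in specimens 6, 8 and 10. The median log2 fold change was 0.34, with a range of 0.13 (Pik3r1) to 1.56 (Gucy2f). Among the MSC treated animals specimen 20 was the highest for 12, specimen 18 for 9 and specimen 13 for 3.

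**Figure D1:**
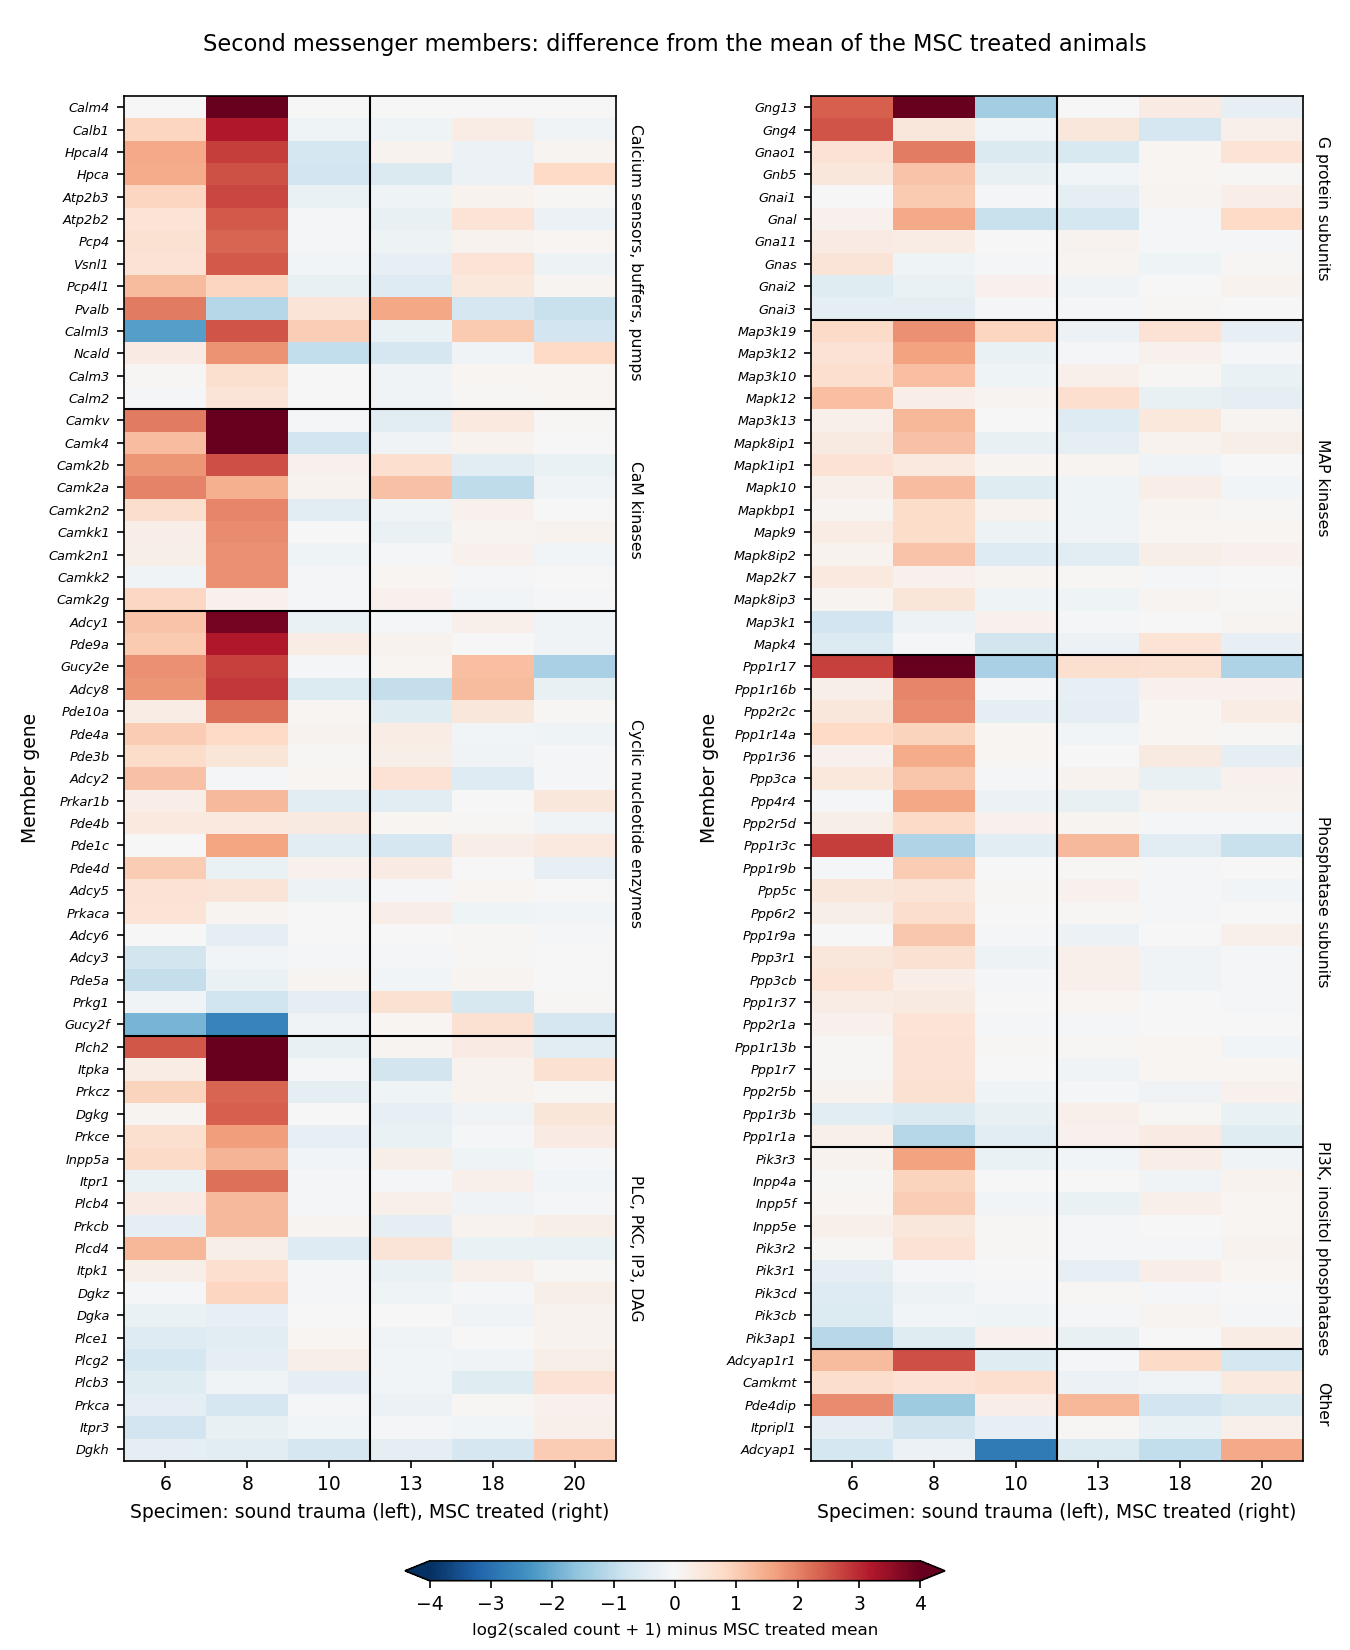
Heat map of 122 of the 124 members (rows, by role) in the 6 animals (columns), coloured by log2(scaled count + 1) minus the MSC treated mean, with colours saturated at 4. The column of specimen 8 is red for most calcium, CaM kinase and PLC genes, specimen 6 is red for a smaller set with Pvalb, Ppp1r3c and Gng4, and specimen 10 is close to white for most members.

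Genes that mark other tissues are given here, and their part in the members' values was not tested. Of 17 Purkinje cell markers 15 are named in the lists, 6 of them members, and all 15 were highest in specimen 8. The 9 that are not members summed to 4506, 20262 and 1641 in sound trauma and 1545, 3017 and 1719 in the treated animals. All 14 of the markers of cerebellar granule cells were highest in specimen 8, with sums of 6030, 30974 and 2549 against 2680, 3915 and 2493. Gabra6, a receptor subunit that defines granule cells, was at 1 read in specimen 10 and at 2, 6 and 4 reads in the treated animals, and Barhl2 was at 0 in specimen 10 and at 2, 0 and 1. In both sums specimen 8 was highest, followed by specimen 6 and specimen 18, and specimen 10 was within the MSC treated range. By single marker, specimen 6 was the next highest after specimen 8 for 24 of the 29, and not for Itpr1, Dner, Itpka, Zic2 and Etv1.

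Markers of choroid plexus and glia were also high in specimens 6 and 8. All 6 choroid plexus markers were down-regulated, 4 of them highest in specimen 6 and 2 in specimen 8, and for each of the 6 both specimens were above the other 4 animals. They summed to 8203, 5537 and 363 in sound trauma and 330.4, 424 and 311 in the treated animals, with Ttr, the transthyretin gene, as the largest part in specimens 6 and 8, and 2 of the 5 tested had an unadjusted p under 0.05 in limma. Of 7 astrocyte markers 5 are named, 4 of them highest in specimen 8, with sums of 6208, 13379 and 2882 against 2099.7, 4530.5 and 2402. Of 8 markers of oligodendrocytes and Schwann cells 5 are named, all highest in specimen 8, with sums of 23319, 32435 and 10068 against 9185, 22923 and 11797. In both glial sums specimen 18 was the highest of the treated animals, and in the latter it was level with specimen 6. Of 14 forebrain neuron markers, the member Camk2a and Drd2 are named, and both were highest in specimen 6.

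Skeletal muscle markers followed another order. The 16 named markers that are not members summed to 1008240, 40287 and 242481 in sound trauma and 572636, 90574 and 102554 in the treated animals, and 15 of the 16 were highest in specimen 6. In that sum, specimens 13 and 10 followed specimen 6, and specimen 8 was last. All 9 of the pituitary markers were highest in specimen 6, with sums of 297435, 3644 and 1256 against 11727, 1278 and 22358, and Fshb was at 0 in 4 libraries. Of 17 hair cell markers 4 are named, 1 of them the member Atp2b2. Among the others, Otof, the calcium sensor of hair cell transmitter release, had 236, 234 and 604 against 440.5, 559 and 403. Pou4f3, the hair cell transcription factor, had 26.7, 23.0 and 50.0 against 45.7, 43.9 and 53.4. Both were lowest in specimens 6 and 8. Lhfpl5, a part of the hair cell transduction complex, had 27.8, 15.3 and 19.7 against 27.0, 34.7 and 32.0 and was lowest in specimens 8 and 10. All 3 were detected in every library.

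**Figure D2:**
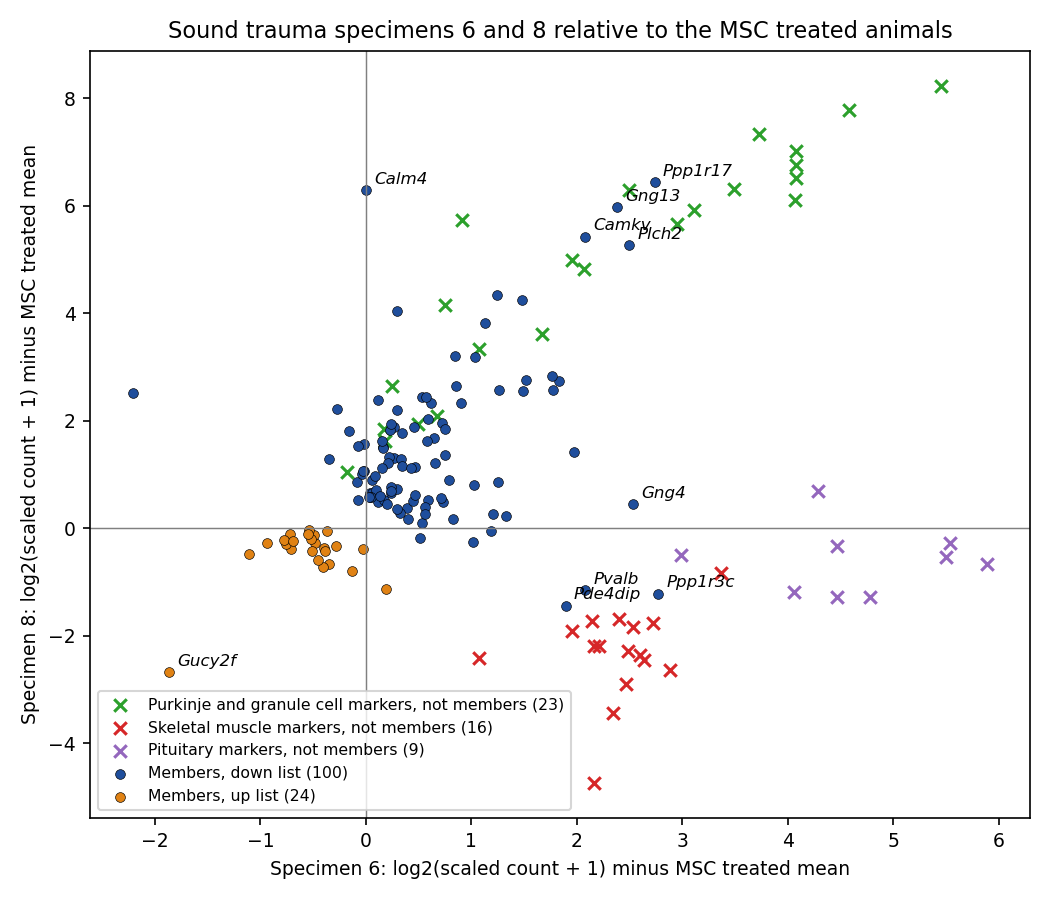
Difference from the MSC treated mean in specimen 6 (horizontal axis) and specimen 8 (vertical axis), in log2(scaled count + 1), for the 124 members (circles) and for marker genes of other tissues that are not members (crosses). Ppp1r17, Gng13, Plch2 and Camkv lie among the cerebellar markers and Pvalb, Pde4dip and Ppp1r3c near the muscle markers, which in specimen 8 are below the MSC treated mean.

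The 22 members highest in specimen 6 were Adcy2, Adcy5, Camk2a, Camk2g, Camkmt, Gna11, Gnas, Gng4, Map2k7, Mapk12, Mapk1ip1, Pcp4l1, Pde3b, Pde4a, Pde4b, Pde4d, Pde4dip, Plcd4, Ppp1r3c, Ppp3cb, Prkaca and Pvalb. They include all 3 of the Pde4 genes on the lists, the catalytic subunit of protein kinase A and the 2 CaM kinase II genes Camk2a and Camk2g. Specimen 13 was the highest of the MSC treated animals for 19 of these 22, and for 15 of the 78 members highest in specimen 8. Over all genes tested, specimen 13 was the highest MSC treated animal for 34.0%. Among the 78, specimen 6 was second for 44, which is 44% of the down-regulated members. This order of specimens 8 and 6 held for 44.8% of the whole down-regulated list and for 10.4% of all genes tested.

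Promoters were inspected because protein kinase A and the CaM kinases act on CREB, a transcription factor that binds the cAMP response element (CRE). The 250 bases before each start site were taken from RefSeq (GRCm38.p6), in which 97 members had 152 promoters. The motif searched was TGACG on either strand, a core of 5 letters that is only part of the CRE. It was in 24.3% of the member promoters and in 17.8% of all 32851 promoters of the table. No share was computed for the full CRE. The share was 27.0% for members highest in specimen 8, 21.9% for those highest in specimen 6 and 19.4% for up-regulated members. The SP1 box GGGCGG, typical of GC-rich promoters, was in 67.4% of promoters of members highest in specimen 8, in 37.5% of those of members highest in specimen 6, in 58.1% of those of up-regulated members and in 32.7% of all promoters. TATAAA was in 2.25%, 12.5%, 9.68% and 12.4% in the same order, and the E-box CAGCTG, bound by muscle and neural basic helix-loop-helix factors, in 14.6%, 12.5%, 3.23% and 13.0%. Several promoters belong to 1 gene and share sequence, and a match is letters only. The 32851 promoters belong to 27025 genes, taken whether or not they had reads here. No share was computed over expressed genes alone, so these differences are not read as a trait of the members. The 100 bases before the start site of a gamma subunit (Gng4, chr13:13784207-13784306, plus strand), a MAP kinase kinase kinase (Map3k10, chr7:27674582-27674681, minus strand) and the ligand PACAP (Adcyap1, chr17:93198917-93199016, plus strand) are shown 5′ to 3′ as 3 members with different patterns over the animals, with the motif in capitals.
Gng4: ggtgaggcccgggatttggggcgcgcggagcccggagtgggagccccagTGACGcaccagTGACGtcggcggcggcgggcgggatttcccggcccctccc
Map3k10: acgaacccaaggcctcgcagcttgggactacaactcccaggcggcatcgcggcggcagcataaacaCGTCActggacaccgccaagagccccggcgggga
Adcyap1: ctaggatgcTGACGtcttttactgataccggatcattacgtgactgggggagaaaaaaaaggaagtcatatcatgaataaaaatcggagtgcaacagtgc
The first letter of the motif in this strand is at -51 and -40 in Gng4, at -34 in Map3k10 and at -91 in Adcyap1, counted from the start site.

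Calcium binding proteins and pumps gave the lowest median of the roles, a log2 fold change of -0.97 over 15 members, all down-regulated. Without specimen 8 this median was -0.25 and not the lowest. It was then -0.27 for the cyclic nucleotide enzymes and -0.39 for the 5 members outside the named roles. Specimen 8 was highest for 13 of the 15. Calb1 (calbindin, a fast calcium buffer, MGP_C57BL6NJ_G0028484) had 404, 2089.9 and 200.1 in sound trauma and 197, 279 and 206 in the treated animals (log2 fold change -1.30, standard error 0.80). Specimen 8 was 9.19 times and specimen 6 1.78 times the MSC treated mean, and specimen 10 was within the MSC treated range. The neuronal calcium sensor Hpcal4 had 103, 246 and 21.4 against 39.5, 29.6 and 37.9 and its relative Hpca (hippocalcin) 103, 217 and 20.5 against 23.9, 30.6 and 63.1. In both genes specimen 10 was the lowest of the 6 animals. Vsnl1, of the same sensor family, and Pcp4, a regulator of calmodulin, both had a log2 fold change of -0.97. Atp2b2, the calcium pump of the hair bundle and of cerebellar neurons, had 1282, 4834 and 856 against 713, 1293 and 747, and specimen 18 was level with specimen 6.

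Pvalb (parvalbumin, MGP_C57BL6NJ_G0022447) had another order of animals. Its scaled counts were 28381, 3038 and 9645 in sound trauma and 19549, 4251 and 3629 in the treated animals (log2 fold change -0.49, standard error 0.96). Specimen 8 was the lowest of the 6 animals, specimens 6, 13 and 10 were the 3 highest in that order, and the groups overlapped widely. The muscle marker sum had the same 3 highest animals in the same order and the same lowest one. Calm2 and Calm3, which encode the same calmodulin protein, varied little, with log2 fold changes of -0.14 and -0.24. Both were highest in specimen 8, at 1.43 and 1.57 times the MSC treated mean. Calm4, a calmodulin-like gene of the epidermis, had 77.4 in specimen 8 and 0 in the other 5 libraries, where 3 reads, or 2.68 to 3.48 scaled counts, was taken as the limit that a count of 0 allows (counting error only). Of 12 keratinocyte markers 8 are named, with Calm4 and its relative Calml3 among them, and all 8 were highest in specimen 8. The 6 that are not members summed to 62.6, 1712 and 38.4 against 295, 55.2 and 45.6, and their part in the value of Calm4 was not tested.

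The CaM kinase group had 9 members, all down-regulated, and their median log2 fold change was -0.76. The genes covered the kinases (Camk2a, Camk2b, Camk2g, Camk4), the kinases that activate Camk4 (Camkk1, Camkk2), the CaM kinase II inhibitors (Camk2n1, Camk2n2) and the pseudokinase Camkv. Camk4 (MGP_C57BL6NJ_G0024639), a nuclear kinase that phosphorylates CREB, had 289, 2487 and 71.5 in sound trauma and 110.1, 133 and 122 in the treated animals (log2 fold change -1.61, standard error 1.18). Specimen 8 stood at 20.4 times the MSC treated mean while specimen 10 was the lowest of the 6. Camkv had 34.8, 363 and 7.15 against 5.19, 10.2 and 7.77, with specimen 8 at 47.0 times the MSC treated mean.

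The CaM kinase II genes split by animal. Camk2b (MGP_C57BL6NJ_G0018407) had 2382, 4157 and 785 against 1104, 521 and 583 (log2 fold change -1.51, standard error 0.62). Specimens 8 and 6 lay above all others, and specimen 13 was above specimen 10. Camk2a, known for forebrain neurons, had 1983, 1345 and 563 against 1131, 247 and 460.1 and was highest in specimen 6, as was Camk2g with 1870.5, 1182 and 1023 against 1185, 973 and 1014. The inhibitors Camk2n1 (-0.63) and Camk2n2 (-0.76) had log2 fold changes of the same sign as the kinases. Camkk2 was high in specimen 8 alone, with 489, 1919.8 and 528 against 578, 514 and 545.

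The cyclic nucleotide enzymes had 14 down-regulated and 5 up-regulated members. Among the down-regulated ones, 7 were highest in specimen 8 and 7 in specimen 6. The calmodulin stimulated adenylyl cyclases Adcy1 and Adcy8 belonged to the first set. Adcy1 (MGP_C57BL6NJ_G0018425) had 1343, 8688 and 508 in sound trauma and 592, 706 and 553 in the treated animals (log2 fold change -1.56, standard error 0.95), with specimen 8 at 14.1 times the MSC treated mean and specimen 10 the lowest. Adcy8 had 101, 213 and 19.7 against 14.5, 70.5 and 23.3, where specimen 18 exceeded specimen 10. Adcy2 and Adcy5 belonged to the second set, with log2 fold changes of -0.40 and -0.30.

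Among the phosphodiesterases, the cGMP enzyme Pde9a had 60.3, 272 and 35.7 against 32.2, 28.6 and 26.2, so that all 3 sound trauma values lay above the MSC treated ones, specimen 10 by a small margin. Its log2 fold change was -1.51 (standard error 0.71). The cAMP phosphodiesterase Pde4b (MGP_C57BL6NJ_G0028922) had 584, 580.3 and 565 against 473, 457 and 406 (log2 fold change -0.38, standard error 0.12). It was the most even of these genes within the sound trauma group, where the 3 animals were close to each other and above all treated ones. Pde4a had 873, 749 and 469.9 against 523, 394 and 383, and here specimen 10 was below specimen 13. Pde10a was highest in specimen 8, with 265, 992 and 227 against 154, 295 and 222, and specimen 18 exceeded specimens 6 and 10. Pde1c, a phosphodiesterase that calmodulin switches on, had a log2 fold change of -0.36 and was highest in specimen 8. The kinase subunits differed in the animal that led: Prkaca, the catalytic subunit of protein kinase A, had 1859, 1379 and 1294 against 1541, 1146 and 1201, and the neural regulatory subunit Prkar1b had 989, 2037 and 604 against 606, 809.9 and 1129.9.

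The up-regulated enzymes were Adcy3, Adcy6, Pde5a, Prkg1 and Gucy2f. The cGMP phosphodiesterase Pde5a had 417, 663 and 856 in sound trauma and 749, 862 and 797 in the treated animals (log2 fold change 0.37, standard error 0.26), and specimen 10 was among the treated animals while specimens 6 and 8 were below them. Adcy3 had 365, 557 and 577 against 578, 622 and 607, where the groups did not overlap but specimens 10 and 13 differed by under 1 scaled count. Prkg1, the cGMP dependent kinase, had 146, 91.8 and 123 against 244, 102 and 165, with specimen 18 below specimens 6 and 10. Adcy6 had 1641, 1280.2 and 1655 against 1690.3, 1732 and 1586, with specimen 8 alone well below the rest. The retinal guanylyl cyclases were at low counts and were listed in opposite directions: Gucy2e had 16.2, 31.5 and 3.57 against 4.16, 10.2 and 0.971 and Gucy2f 5.79, 2.87 and 21.4 against 24.9, 36.8 and 14.6.

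G protein subunits had 8 down-regulated and 2 up-regulated members. Gng13 (MGP_C57BL6NJ_G0023766), a gamma subunit, had 37.1, 458 and 1.79 in sound trauma and 6.23, 8.17 and 4.85 in the treated animals, and was below 3 reads in specimen 10. Gng4, whose promoter holds a pair of TGACG cores, had 213, 49.7 and 33.1 against 49.9, 22.5 and 41.7. It was high in specimen 6 alone, which was 5.61 times the MSC treated mean. The inhibitory alpha subunits did not share a direction. Gnao1, abundant in neurons, had 1457, 3985 and 645 against 633, 1021 and 1407 (log2 fold change -0.68, standard error 0.66), where specimen 20 was level with specimen 6. Gnai1 was also down-regulated (-0.33). Gnai2, the leukocyte-rich form, was up-regulated (0.19), with 4315, 4946 and 6807 against 5442, 6036 and 6607, and specimen 10 was the highest of the 6. Gnai3 (log2 fold change 0.28, MGP_C57BL6NJ_G0028182), which helps to shape the hair bundle, had 709, 724 and 893 against 898, 955 and 951, so that the groups did not overlap, though specimen 10 was within 1% of specimen 13. Gnas, the stimulatory alpha subunit, had 19105, 11869.5 and 12925 against 14486, 11891 and 13864 and was highest in specimen 6. Gnal, the olfactory type alpha subunit, had 391, 1006 and 189 against 214, 328 and 609, with specimen 20 second to specimen 8. Gnb5, a beta subunit that pairs with Rgs proteins, had a log2 fold change of -0.44. Other transcripts overlap at the Gnas locus, and how their reads were assigned is not given in the sources used here.

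The phospholipase C, IP3, diacylglycerol and protein kinase C genes had 13 down-regulated members, 12 of them highest in specimen 8, and 7 up-regulated ones, all 7 highest in specimen 20. Plch2 (MGP_C57BL6NJ_G0029635), a phospholipase C of neurons, had 305, 2091 and 42.9 in sound trauma and 57.1, 67.4 and 38.8 in the treated animals (log2 fold change -2.49, standard error 1.29). Itpka, which phosphorylates IP3, had 11.6, 167 and 8.93 against 5.19, 10.2 and 14.6. In both genes specimen 8 was at least 10 times the MSC treated mean, and specimen 10 was within the MSC treated range.

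Of the protein kinase C genes, Prkcz, Prkce and Prkcb had log2 fold changes of -0.96, -0.67 and -0.35, and all 3 were highest in specimen 8. The phospholipase Plcb4 (-0.53), the IP3 phosphatase Inpp5a (-0.67) and the inositol kinase Itpk1 (-0.28) were highest in specimen 8 too, and Plcd4 (-0.35) in specimen 6.

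Isoforms of 1 family were listed in opposite directions here. The IP3 receptor Itpr1 (MGP_C57BL6NJ_G0031539), the main type of neurons, had 1677, 9388 and 1957 against 1906, 2306 and 1876 (log2 fold change -0.63, standard error 0.64). Only specimen 8 was high, and specimen 6 was the lowest of the 6. Itpr3, a type known from epithelia, had 597, 826 and 943 against 958, 931 and 1149 (log2 fold change 0.38, standard error 0.20), with specimens 6 and 8 below the treated animals. The ratio of Itpr1 to Itpr3 scaled counts was 2.81, 11.4 and 2.07 in sound trauma and 1.99, 2.48 and 1.63 in the treated animals. The protein kinase C gene Prkca was listed as up-regulated and had 1016, 809.8 and 1262 against 1103, 1343 and 1450.2, lowest in specimen 8. Of the diacylglycerol kinases, Dgkg (-0.84) and Dgkz (-0.24) had negative and Dgka (0.21) and Dgkh (0.49) positive log2 fold changes. Dgkh had 32.4, 31.5 and 26.8 against 33.2, 26.6 and 88.3, which was high in specimen 20 only, and Plcb3 614, 791 and 677 against 801, 621 and 1294, again high in specimen 20 only. The up-regulated phospholipases Plce1 (0.28) and Plcg2 (0.29), the latter known from B cells and myeloid cells, were lowest in specimen 6.

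The phosphatase subunits had 20 down-regulated members with a median of -0.33 in log2 fold change, and 18 of the 20 were highest in specimen 8. Ppp1r17 (MGP_C57BL6NJ_G0031213), a phosphatase inhibitor of Purkinje cells that protein kinase G phosphorylates, had 30.1, 406 and 0.893 in sound trauma and 6.23, 6.13 and 0.971 in the treated animals. Specimens 10 and 20 had 1 read each. Ppp1r9b, the scaffold spinophilin that brings phosphatase 1 to dendritic spines, had 2656, 5498 and 2745 against 2788, 2617 and 2761, so that 5 animals were nearly level and specimen 8 was high. Ppp2r2c, a brain subunit of phosphatase 2A, had 874, 2353 and 484 against 488, 674 and 784, and Ppp1r16b, a phosphatase 1 subunit at the membrane, 388, 1269 and 314 against 261, 371 and 369.8. Both were high in specimen 8, and specimen 6 was next. Ppp1r9a (neurabin), Ppp1r7, Ppp1r13b, Ppp1r37, Ppp2r1a, Ppp2r5b, Ppp4r4, Ppp5c and Ppp6r2 had log2 fold changes between -0.41 and -0.20 and were all highest in specimen 8. The calcineurin genes Ppp3ca, Ppp3cb and Ppp3r1 had log2 fold changes of -0.50, -0.25 and -0.29. Ppp3ca had 2325, 3776 and 1672 against 1921, 1398 and 1935, where specimen 10 was lower than specimens 13 and 20.

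The glycogen targeting subunits of phosphatase 1 had different patterns. Ppp1r3c (MGP_C57BL6NJ_G0025488) had 3095, 195 and 329.7 in sound trauma and 1107, 341 and 247 in the treated animals, with specimen 6 first, specimen 13 second and specimen 8 last. Its log2 fold change was -0.37 (standard error 1.10). Ppp1r3b, the liver type, was up-regulated with 220.2, 202 and 248 against 348, 314 and 253, and the groups did not overlap, by a margin of 5 scaled counts between specimens 10 and 20. Ppp1r1a, inhibitor 1, which protein kinase A activates, was also listed as up-regulated, with 832, 333 and 544 against 827, 908 and 515. Specimen 6 was above 2 of the 3 treated animals for this gene.

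The MAP kinase group had 13 down-regulated and 2 up-regulated members. The down-regulated ones included the JNK kinases Mapk9 and Mapk10, the kinase above them (Map2k7), kinases further up (Map3k10, Map3k12, Map3k13) and the scaffolds Mapk8ip1, Mapk8ip2 and Mapk8ip3. Map3k12 (MGP_C57BL6NJ_G0022831), a kinase of injured axons, had 484, 997 and 268 in sound trauma and 306, 364 and 307 in the treated animals (log2 fold change -0.64, standard error 0.45). Map3k10, with a TGACG core in the promoter above, had 816, 1201 and 459 against 599, 539 and 427. For both, specimen 10 lay within or below the MSC treated range. Map2k7 had 1549, 1324 and 1278 against 1210.3, 1147 and 1171, and the groups did not overlap, with specimen 10 the lowest of the sound trauma animals. Map3k19, at low counts, had 19.7, 43.0 and 21.4 against 9.35, 17.4 and 8.74 and its groups did not overlap either. Mapk12, the p38 gamma kinase of muscle, had 829.8, 430.2 and 385 against 573, 293 and 276, with specimens 6 and 13 first and specimens 18 and 20 last. The scaffold Mapk8ip3 had 2612, 3412 and 2135 against 2166, 2594 and 2507 (log2 fold change -0.14), and specimen 10 was the lowest animal. Mapkbp1, a JNK binding protein, had a log2 fold change of -0.32. Map3k1 was up-regulated, with 584, 863 and 1131 against 936, 976 and 1086, and specimen 10 was the highest animal. Mapk4, an atypical MAP kinase, had 352, 502 and 310.0 against 439, 749.6 and 409.6, high in specimen 18.

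The PI3 kinase group had 9 members in both directions, with log2 fold changes between -0.50 and 0.48. The 5 down-regulated members were the regulatory subunits Pik3r2 and Pik3r3 and the inositol phosphatases Inpp4a, Inpp5e and Inpp5f, all highest in specimen 8. Pik3r3 had 274, 755 and 204 against 226, 292 and 223 (log2 fold change -0.50, standard error 0.47). Inpp4a had 701, 1255 and 689 against 685, 608 and 738, Inpp5f 369.7, 688 and 319 against 287, 396 and 369.8 and Pik3r2 832, 1213 and 847 against 789, 765 and 894. In these genes specimen 8 alone stood out and the other 5 animals overlapped. The 4 up-regulated members were the catalytic subunits Pik3cb and Pik3cd, the regulatory subunit Pik3r1 and the B cell adaptor Pik3ap1, all lowest in specimen 6. Pik3cb (MGP_C57BL6NJ_G0035659) had 331, 452 and 434 against 471, 525 and 464 (log2 fold change 0.27, standard error 0.16), with groups that did not overlap. Pik3cd, the leukocyte isoform, had 869, 1092 and 1219 against 1298, 1207 and 1239.6, and Pik3ap1 246, 381 and 592 against 436, 529 and 647. Pik3r1 had 1671, 2074 and 2193 against 1732, 2571 and 2252. In these last 3 genes specimen 10 was inside the MSC treated range. Of 8 B cell and 9 myeloid markers, 2 each are named, all up-regulated, with sums of 176, 339 and 389.5 against 291, 474 and 553 for B cells and 1059, 1044 and 1982 against 1705, 1672 and 1823 for myeloid cells. Their part in the Pik3cd and Pik3ap1 values was not tested.

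The PACAP system was listed with its ligand and receptor in opposite directions. Adcyap1 (MGP_C57BL6NJ_G0024523), which encodes the neuropeptide PACAP, had 15.1, 21.0 and 2.68 in sound trauma and 16.6, 12.3 and 73.8 in the treated animals (log2 fold change 1.25, standard error 0.92). Specimen 20 was high, specimen 10 was at 3 reads, and the other 4 animals overlapped. The log2 fold change was 0.48 without specimen 20. Its receptor Adcyap1r1, which acts through adenylyl cyclase, had 313, 775 and 92.0 against 123, 224 and 79.6 (log2 fold change -1.11, standard error 0.79), with specimen 8 highest and specimen 18 above specimen 10. Of the 7 named pan-neuronal markers, 5 were highest among the treated animals in specimen 20, and Snap25 and Syp were highest in specimen 18. Of the 5 named spiral ganglion markers, 3 were highest in specimen 20, Ntrk3 in specimen 18 and Epha4 in specimen 13. Over all 6 animals, specimen 8 was highest for 6 of the 7 and for 3 of the 5, and the pan-neuronal markers summed to 10814, 29613 and 6198 in sound trauma and 6991, 9784 and 10946 in the treated animals. Whether these bear on Adcyap1 in specimen 20 was not tested. Camkmt, the calmodulin lysine methyltransferase, had 39.4, 35.4 and 38.4 against 19.7, 21.4 and 31.1, and its groups did not overlap. Itpripl1 had 148, 119 and 157 against 203, 164 and 229 and did not overlap either. Pde4dip (myomegalin, an anchor at the Golgi and in muscle) had 25565, 2541 and 8291 against 17261, 4062 and 4646, in the same order of animals as Pvalb for the 3 highest.

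**Figure D3:**
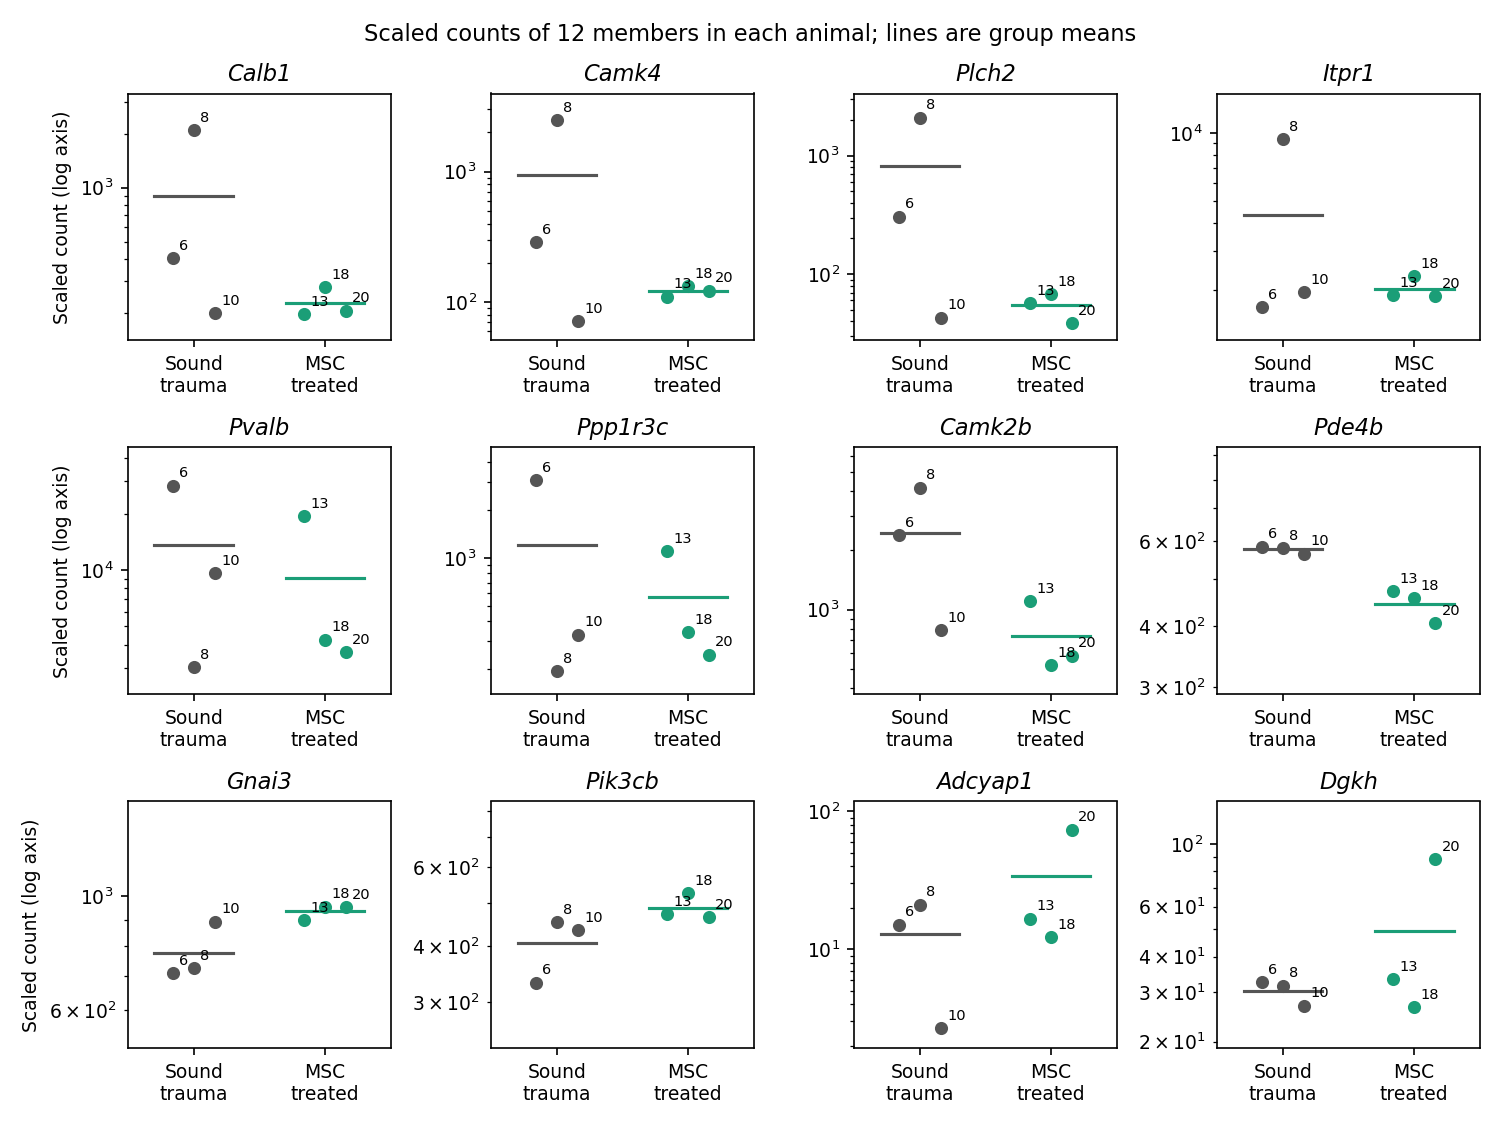
Scaled counts (log axis) of 12 members in each of the 6 animals, numbered by specimen, with group means as lines. In the top row the sound trauma mean is carried by specimen 8, in Pvalb and Ppp1r3c by specimen 6, and in Adcyap1 and Dgkh the MSC treated mean is carried by specimen 20, while the 3 animals of each group are on separate sides in Pde4b, Gnai3 and Pik3cb.

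All 3 sound trauma values lay above all 3 MSC treated values for 7 of the 124 members: Pde9a, Pde4b, Map3k19, Map2k7, Camkmt, Ppp1r14a and Ppp2r5d. In the other direction the groups did not overlap for 5: Adcy3, Gnai3, Itpripl1, Ppp1r3b and Pik3cb. Over all genes tested the shares were 2.92% and 4.25%, and the members were chosen on this contrast, so nothing is read from their counts. For 56 of the 100 down-regulated members, specimens 6 and 8 were both above every MSC treated animal, as they were for 58.6% of the other genes of that list and for 15.6% of all genes tested. Ppp1r14a, an inhibitor of myosin phosphatase in smooth muscle, had 96.2, 104 and 59.0 against 50.9, 58.2 and 57.3, and Ppp2r5d, a phosphatase 2A subunit, 853, 1237 and 814 against 773, 690.4 and 707. In both genes specimen 10 exceeded the highest treated animal by less than specimens 6 and 8 did.

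The fold changes of most members depended on specimens 6 and 8. The median of the down-regulated members was -0.46 with all animals, -0.16 without specimen 8, -0.50 without specimen 6 and -0.78 without specimen 10. With both specimens 6 and 8 left out, a choice made after seeing the data that leaves specimen 10 alone against the treated animals, it was 0.05, and 36 of the 100 members kept a negative sign. The median of the up-regulated members went from 0.34 to 0.19 without specimen 6, to 0.33 without specimen 8 and to 0.06 without both, where 17 of the 24 kept a positive sign. Camk4 went from -1.61 to 0.76, Plch2 from -2.49 to 0.30 and Ppp1r17 from -2.63 to 1.30. Pde4b (-0.35), Camkmt (-0.68), Map3k19 (-0.87) and Pvalb (-0.52) stayed on the negative side, and Adcyap1 (2.82) and Dgkh (0.66) on the positive side.

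**Figure D4:**
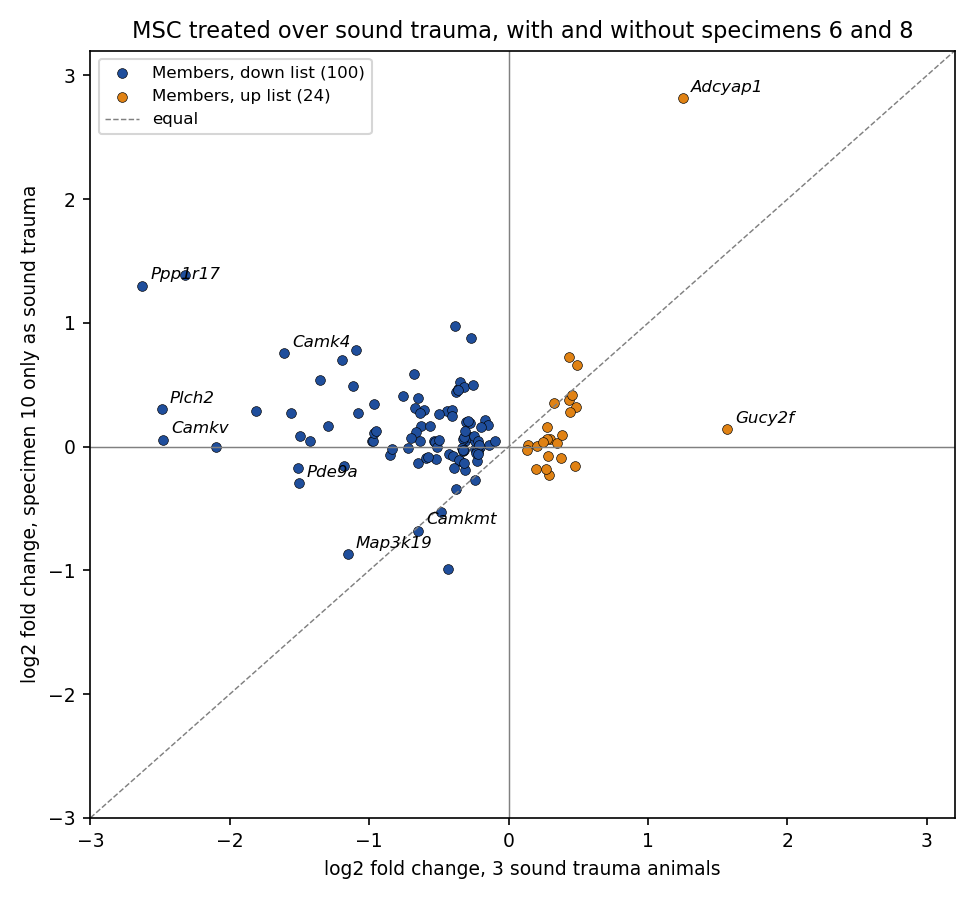
Log2 fold change of the 124 members with 3 sound trauma animals (horizontal axis) and with specimen 10 as the only one (vertical axis), with equal values on the dashed line. The median of the down-regulated members on the vertical axis is 0.05, and some of the members farthest to the left lie above 0, such as Ppp1r17 (1.30) and Camk4 (0.76).

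The animals differed more within the sound trauma group than within the treated group. The median ratio of the highest to the lowest animal was 2.93 in sound trauma and 1.35 in the treated group for the 100 down-regulated members, 1.57 and 1.30 for the 24 up-regulated ones, and 1.55 and 1.29 for all genes tested. Across the 6 libraries, the 5 pairs of members from different roles with the most alike log2 values were Atp2b3 with Ppp2r1a, Calm3 with Ppp1r7, Camkk2 with Ppp1r9b, and Camk2n2 with Map3k12 and with Prkcz, with Pearson r that rounded to 0.998 or more (n = 6). Without specimen 8 these were 0.997, 0.984, 0.828, 0.992 and 0.989 (n = 5). These pairs share libraries, and specimen 8 is the extreme point in each.

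Other genes of the same pathways, from lists that do not depend on the symbol pattern, are given next. Of the 41096 genes in the count table, 6.67% were on the down- and 2.77% on the up-regulated list, many of the rest with few or no reads, and nothing particular is read from the counts that follow. Of 55 receptor genes 19 are named, 17 as down- and 2 as up-regulated, and 16 of the 19 were highest in specimen 8. The cannabinoid receptor Cnr1 had 152, 1432 and 58.1 against 123, 84.8 and 132. The 2 up-regulated receptors were the prostaglandin receptors Ptger2 and Ptger3, the latter with 35.9, 54.5 and 77.7 against 127, 82.7 and 104. Of 20 Rgs genes, which switch off G proteins, 4 were down- and 3 up-regulated, and of 20 anchors and scaffolds 5 were down- and 0 up-regulated.

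For calcium stores and entry channels, 10 of 26 genes were down- and 2 up-regulated. Car8, which binds the IP3 receptor in Purkinje cells, had 190.1, 2652 and 25.9 against 36.4, 34.7 and 28.2. Ryr1, the calcium release channel of skeletal muscle, had 26800.1, 1832 and 9648 against 19475, 2808 and 4075, and its 3 highest animals were specimens 6, 13 and 10, as for Pvalb. Atp2a3, a calcium pump of endothelial and blood cells, was up-regulated, with 1950.5, 3086 and 3553 against 2680.4, 3633 and 3681. Of 22 further EF-hand genes 8 were down- and 1 up-regulated.

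Targets that these kinases are known to act on or induce had 16 down- and 6 up-regulated genes of 41. The activity-dependent gene Fos had 588, 511 and 315 against 416, 299 and 192, and Arc, induced by synaptic activity, had 107, 138 and 33.9 against 33.2, 57.2 and 34.0. Both were higher in specimens 6 and 8 than in the other 4 animals, and specimen 10 was within the MSC treated range. Nr4a1, another early response gene, had 1481, 439 and 699 against 906, 442 and 350.4. In limma 0 genes of these 6 lists had an adjusted p under 0.05, and 1 receptor, 1 Rgs and 1 calcium store gene had an unadjusted p under 0.05.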

How the data were processed

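Bulk RNA from the left cochlea of 6 animals was sequenced. The authors mapped reads to the C57BL/6NJ mouse assembly and deposited TMM scaled counts per gene, a signal in which each library's reads share 1 factor. Neither the counter nor its handling of strand is given in the sources used here. The authors' lists were used for identifiers and symbols, and the fold changes, FDR and FPKM in them were not used.

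The members and the gene lists were chosen with earlier results of these data known. All values (100%) were whole multiples of the library's step (tolerance 1e-06), so reads were recovered. Genes were kept with filterByExpr of edgeR 4.0.16 on these reads, and log2(scaled count + 1) was fitted with limma-trend (limma 3.58.1, R 4.3.3) over 15970 genes with Benjamini-Hochberg adjustment. Alternatives were 3 other scalings, no filter, pseudocounts of 0.1 and 10, edgeR, DESeq2 1.42.0, limma-voom and each library left out. Simulated data of this comparison had 15970 genes and 1 common dispersion of 0.112. In these data limma-trend recovered 97 of 100 genes changed 8-fold and 7 of 100 changed 2-fold, with 5 false calls. Recovery at the spread that the sound trauma animals showed was not tested. Reads per library were 9170390 to 11030863, and intervals from 3 reads cover counting error only. Within each role and list, full values were given by rule for the 3 members with the largest fold change and the 1 with the highest mean, and values of further members were chosen after they were seen. Tables were made with Python 3.11.15 and pandas 2.3.3. P-values weigh the difference between the groups against the spread of these specimens within the groups. Some genes are withheld and not reported here.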

Additional observations from a re-analysis of the deposited data

How the results depend on the processing

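The number of genes with an adjusted p under 0.05 was 0 under every scaling, filter, pseudocount and test tried, and between 0 and 1 when each animal was left out, the 1 gene being Ttr without specimen 10 (adjusted p = 0.0369 in limma). The median log2 fold change of the down-regulated members was between -0.78 (without specimen 10) and -0.16 (without specimen 8) when 1 animal was left out, and 0.054 without specimens 6 and 8. That of the up-regulated members was between 0.19 (without specimen 6) and 0.46, and 0.063 without specimens 6 and 8. The cause was not tested. The members highest in specimen 8 were between 76 and 84 of the 124 under other scalings, and those highest in specimen 6 between 15 and 24. Total read scaling moved the median of all genes to 0.07 and that of the up-regulated members to 0.41. Of 808 alternative values for 52 members, 778 moved by less than 1 SD. The other 30 were all without specimens 6 and 8, which leaves 1 sound trauma animal. Leaving out 1 of 3 animals cannot move a group mean by 1 SD here. The count therefore does not show how far the values depend on single animals. No paired analysis was possible because the groups share no specimen numbers. Genes near 3 reads in a library, such as Gucy2e and Gng13, have little precision there.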
